A study of Homo sapiens with 28 samples.

Results

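Acetylation of histone H3 at lysine 27 (H3K27ac) was compared between hypoxia and normoxia in T47D cells, an established luminal, oestrogen receptor-positive breast cancer cell line. The comparison rests on the 2 deposited H3K27ac peak lists, whose entries are called domains here because many of them span several kilobases. The hypoxia list held 46713 domains and the normoxia list 42586 on chromosomes 1 to 22 and X, together 89299 of the 349107 regions in all peak lists of the series. They belong to 4 of its 28 chromatin immunoprecipitation sequencing (ChIP-seq) samples, 2 labelled normoxia and 2 labelled hypoxia, all precipitated with the same H3K27ac antibody. The other samples measured the zinc finger and homeobox protein ZHX2, the chromatin architecture protein CTCF, Flag-tagged ZHX2 in wild-type and PA mutant form, and inputs.

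The hypoxic cells were kept in a hypoxia workstation and fixed inside the chamber. The sources used here state neither the oxygen level nor how long hypoxia lasted. The growth protocol, worded alike for every sample, speaks of lentiviral infection with hygromycin or puromycin selection; it does not say which of these samples, if any, carried a vector. Each condition is represented by 1 list with no values per replicate, so no difference between the conditions has a replicate check and no test of the condition was possible. The intervals below are 95% Wilson intervals, which cover counting error over domains only, and the read depth behind the lists is unknown.

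H3K27ac is laid down by the acetyltransferases p300 and CBP and marks active promoters and enhancers. Broad H3K27ac domains are typical of genes that are highly transcribed in a cell type. In low oxygen the HIF transcription factors escape hydroxylation and VHL-dependent degradation, bind the core letters RCGTG at their target genes and recruit p300 and CBP. Their known targets include glycolytic enzymes, glucose transporters, angiogenic factors and the oxygen-sensing hydroxylase EGLN3.

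Lists of cell type markers differed in how many members had a domain. All 20 genes of a luminal list, among them ESR1, GATA3, FOXA1 and KRT8, had a domain in at least 1 list. By comparison, 7 of 11 basal or myoepithelial genes and 7 of 16 immune or stromal genes had one, against 73.9% of all protein-coding genes. The basal or myoepithelial count was thus near the share over all genes. A domain at every member was not particular to the luminal list. All 20 immediate early genes and all 14 heat shock genes also had one. The luminal gene TFF1 had a domain in the hypoxia list only. The median immune or stromal gene had 0 covered bases in both lists. The basal keratins KRT5 and KRT14 were at 0 in both lists, as were PECAM1 and COL3A1, while TP63 had 26691 covered bases in hypoxia and 26155 in normoxia and PTPRC 4459 and 5287.

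The upstream sequences of 6 genes whose H3K27ac coverage rose in hypoxia are shown first. Those of LOX, VLDLR and ENO2 lay in a domain in the hypoxia list only. Those of LDHA, PGK1 and BNIP3 lay in domains that were wider in the hypoxia list. The start domains of ANGPTL4, EGLN3 and PFKP were also wider in the hypoxia list, so the 6 are not a complete set. Each line gives the 250 bases before the annotated gene start, 5′ to 3′ on the gene's strand, from RefSeq (GRCh38.p14). Capitals mark the letters ACGTG or GCGTG, which together spell the HIF core RCGTG, or their reverse complements CACGT or CACGC; matches on both strands are marked and may overlap. LOX lies on the minus strand with this stretch at chr5:122078260-122078509, VLDLR on the plus strand at chr9:2621537-2621786, ENO2 on the plus strand at chr12:6914330-6914579, LDHA on the plus strand at chr11:18394313-18394562, PGK1 on the plus strand at chrX:78103998-78104247 and BNIP3 on the minus strand at chr10:131981924-131982173.
LOX: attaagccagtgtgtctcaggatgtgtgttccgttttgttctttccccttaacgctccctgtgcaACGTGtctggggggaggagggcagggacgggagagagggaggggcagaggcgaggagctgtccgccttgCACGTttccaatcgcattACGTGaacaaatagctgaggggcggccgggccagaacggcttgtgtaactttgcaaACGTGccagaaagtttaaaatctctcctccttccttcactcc
VLDLR: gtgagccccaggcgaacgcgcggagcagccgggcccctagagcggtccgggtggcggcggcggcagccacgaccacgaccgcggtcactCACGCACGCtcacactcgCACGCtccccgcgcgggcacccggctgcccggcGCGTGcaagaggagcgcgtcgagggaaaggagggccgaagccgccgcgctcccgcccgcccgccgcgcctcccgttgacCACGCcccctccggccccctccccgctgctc
ENO2: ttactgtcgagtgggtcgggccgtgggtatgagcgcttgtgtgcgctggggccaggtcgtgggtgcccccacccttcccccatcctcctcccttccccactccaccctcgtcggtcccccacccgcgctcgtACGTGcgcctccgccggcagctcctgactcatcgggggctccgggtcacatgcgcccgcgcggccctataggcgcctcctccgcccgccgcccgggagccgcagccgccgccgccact
LDHA: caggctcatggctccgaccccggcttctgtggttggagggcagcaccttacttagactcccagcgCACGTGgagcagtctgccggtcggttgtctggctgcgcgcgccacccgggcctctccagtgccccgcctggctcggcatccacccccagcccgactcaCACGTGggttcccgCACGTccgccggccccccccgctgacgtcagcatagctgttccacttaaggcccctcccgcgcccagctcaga
PGK1: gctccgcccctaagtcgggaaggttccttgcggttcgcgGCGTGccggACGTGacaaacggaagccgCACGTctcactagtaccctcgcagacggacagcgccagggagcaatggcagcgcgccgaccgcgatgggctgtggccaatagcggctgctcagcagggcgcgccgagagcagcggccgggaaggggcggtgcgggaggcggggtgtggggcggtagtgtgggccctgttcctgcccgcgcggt
BNIP3: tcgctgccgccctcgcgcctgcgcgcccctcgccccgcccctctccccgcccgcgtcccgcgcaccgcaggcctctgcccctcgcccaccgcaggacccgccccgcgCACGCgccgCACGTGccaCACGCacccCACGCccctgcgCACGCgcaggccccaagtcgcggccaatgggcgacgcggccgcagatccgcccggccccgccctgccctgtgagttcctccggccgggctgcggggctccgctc

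LOX held 4 matches, VLDLR 5, ENO2 1, LDHA 5, PGK1 3 and BNIP3 6 in these 250 bases. A match is a description of letters only: over 300 bases around the gene start, 56.0% of the 15811 RefSeq promoters read here held at least 1 of the 4 letter strings, and 23.7% held ACGTG or CACGT. EGLN3 and PFKP, whose coverage also rose, held no match in the same window, and ANGPTL4 held 1. The 6 sequences printed therefore hold more matches than these 3 that are not printed.

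The hypoxia list was longer, covered slightly more of the genome and had narrower domains at its median. It covered 101.6 Mb with a median width of 1309 bases (quartiles 630 and 2600), and the normoxia list covered 96.9 Mb with a median width of 1422.5 bases (quartiles 683 and 2703). The ratios of hypoxia to normoxia were 1.10 for the number of domains, 1.05 for covered bases and 0.920 for median width. The difference in median width turned with list length: when the longer list was reduced to its 42586 highest-scoring domains, the ratio of median widths became 1.03. Per base the lists shared 85.3 Mb, which was 83.95% of the hypoxia coverage and 88.0% of the normoxia coverage.

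Most domains were found in both conditions. A domain was counted as shared when at least 1 base overlapped a domain of the other list. In the hypoxia list 37672 domains (80.6%, 80.3 to 81.0) were shared and 9041 (19.4%, 19.0 to 19.7) were hypoxia-only. In the normoxia list 37935 domains (89.1%) were shared and 4651 (10.9%, 10.6 to 11.2) were normoxia-only. With lists of equal length the shares came closer, at 14.9% hypoxia-only and 13.8% normoxia-only.

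The list-only domains were mostly small and low-scoring. Hypoxia-only domains had a median width of 450 bases and a median fold enrichment, as given by the authors' peak caller, of 2.93, against 1607 bases and 5.67 for hypoxia domains paired with a single normoxia domain. Normoxia-only domains had a median width of 419 bases and a median fold of 3.00. In the lowest decile of the hypoxia list by score 35.5% of domains were shared, and in the lowest decile of the normoxia list 57.1%. All normoxia domains in the top 4 deciles by score had a hypoxia partner. In the top decile of the hypoxia list 11 of 4672 domains had no partner, and all 11 lay in 1 gene, NAT10.

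Hypoxia-only domains were more often within genes than normoxia-only ones. Of the hypoxia-only domains 62.1% lay inside a protein-coding gene, 7.21% within 1 kb of a gene end and 30.7% between genes. For normoxia-only domains the shares were 53.4%, 4.64% and 41.9%. The median distance to the nearest domain of the other list was 6073 bases for hypoxia-only and 4695 bases for normoxia-only domains, and 5.86% and 4.86% of them were over 100 kb away. These distances were not compared with those of other positions.

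Joining overlapping domains into groups gave 50110 groups. In 34160 of them 1 hypoxia domain met 1 normoxia domain, in 1157 a hypoxia domain merged 2 or more normoxia domains, in 979 a normoxia domain was split into 2 or more hypoxia domains, and 122 groups were of mixed form. Most of the bases that differed between the lists lay in shared domains and not in list-only domains. Such bases include gaps closed or opened between domains as well as domain edges. Of the 16.3 Mb covered only in hypoxia, 11.2 Mb (68.6%) lay in shared domains, and of the 11.6 Mb covered only in normoxia, 9.13 Mb (78.6%) did.

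**Figure D1:**
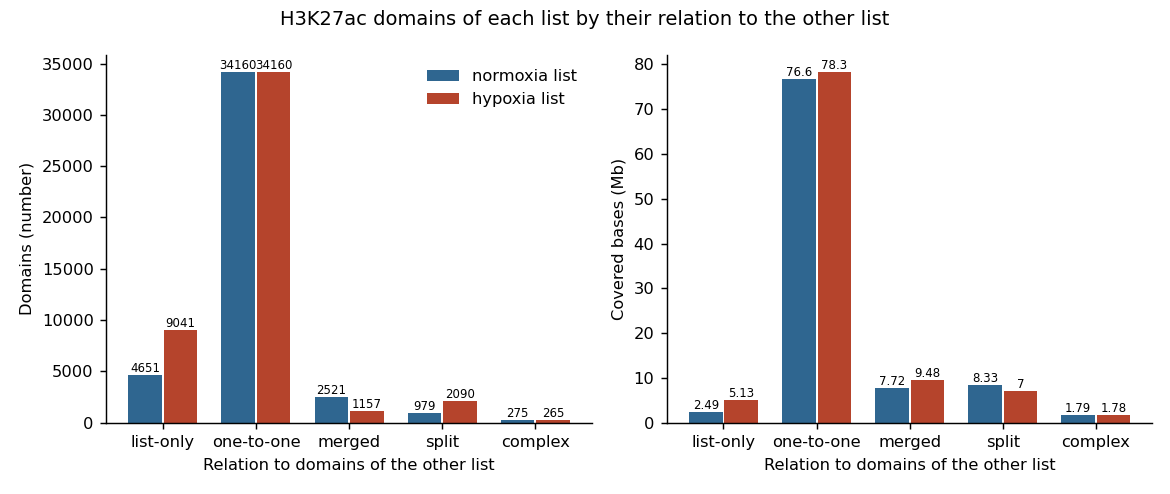
Number of H3K27ac domains (left axis, count) and covered bases (right panel, Mb) in the normoxia list (blue) and the hypoxia list (red), by relation to the other list. One-to-one domains make up 34160 domains of each list, and the list-only class holds 9041 hypoxia and 4651 normoxia domains but only 5.13 and 2.49 Mb.

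Merged groups outnumbered split groups, with a ratio of 1.18 (95% interval 1.09 to 1.29, counting error only). The order turned when only the upper 50% of each list by score was used, where 233 groups were merged and 256 split, a ratio of 0.910. Of the merged groups 1008 joined 2 normoxia domains, 116 joined 3 and 33 joined 4 or more. Merged hypoxia domains were wide, with a median of 5950 bases, and 48.6% touched a gene end. Split normoxia domains had a similar median of 6109 bases, and 25.8% touched a gene end. The gaps that were closed in hypoxia had a median width of 764 bases and the gaps that opened had one of 790 bases. A CTCF peak of the normoxia list lay in 13.3% (11.6 to 15.2) of the closed gaps and in 9.0% (7.46 to 10.8) of the opened ones. A ZHX2 peak of the hypoxia list lay in 7.18% (5.93 to 8.68) of the closed and 2.70% (1.90 to 3.83) of the opened gaps.

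The hypoxia domains that joined most normoxia domains lay at ZNF532, a zinc finger gene on chromosome 18 (9 joined into 1 domain of 48646 bases), 206715 bases from PLS3 on the X chromosome (9), in BCAR3 (7), at SLC7A5, which encodes a subunit of a large neutral amino acid transporter (6), and at RAI1 (5). The normoxia domains split into most pieces, 5 each, lay at MAP6D1 and PARL, in VAV3, a guanine nucleotide exchange factor, in MREG, in BMPER and at PLAAT2. SLC2A1, the glucose transporter GLUT1, showed merging within a gene known to respond to hypoxia. Its normoxia list held 8 domains within 1 kb of the gene and its hypoxia list 4, the largest of them 25899 bases wide, and its covered bases were 30561 in hypoxia and 23799 in normoxia, which did not reach the call rule given below.

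Domains with a single partner were wider in hypoxia most often at gene ends. Over all 34160 pairs the median ratio of hypoxia to normoxia width was 1.03 (quartiles 0.882 and 1.20), 18983 pairs (55.6%) were wider in hypoxia and 15134 narrower. At gene ends the median ratio was 1.05 and 66.6% of 10678 pairs were wider. Inside genes the ratio was 1.02 with 53.1% wider, and between genes it was 0.985 with 47.5% wider. Large changes were uncommon: 2034 pairs (5.95%) were at least 2 times wider in hypoxia and 1417 (4.15%) at least 2 times narrower.

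**Figure D2:**
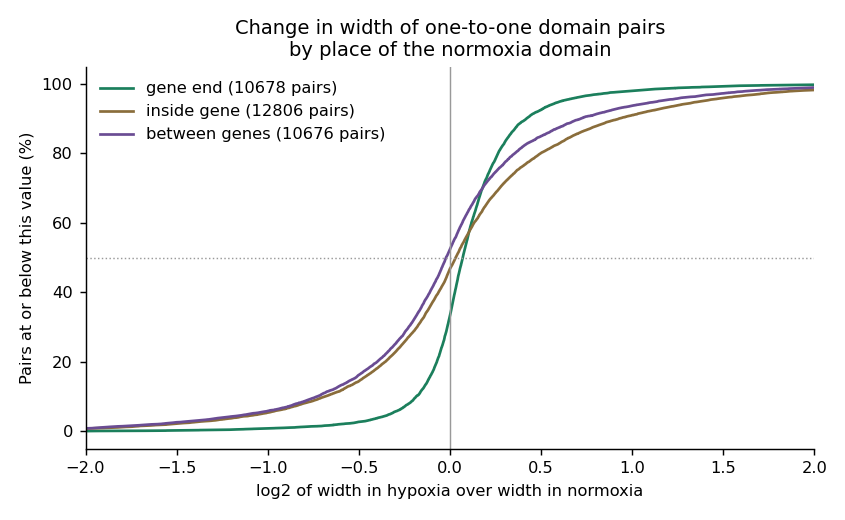
Cumulative share of one-to-one domain pairs (y axis, %) against the log2 ratio of hypoxia to normoxia width (x axis), with 1 line for each place of the normoxia domain. The line for gene ends crosses 50% to the right of 0 (median ratio 1.05) and the line for domains between genes to the left of it (median ratio 0.985).

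The pairs that widened most by bases lay 5218 bases from OR1I1 on chromosome 19 (3084 bases in normoxia and 11276 in hypoxia), in WDR45B (1157 and 8149), 39081 bases from LPCAT1 (1391 and 8381), 33709 bases from MRPL14 (674 and 7499) and 11336 bases from FBXO16 (2150 and 8279). The pairs that narrowed most lay in PHACTR1 (11216 to 4661 and 13130 to 7739), at WDR45B (10974 to 5021), at CCDC170, the neighbour of ESR1 (12911 to 7382), and 367105 bases from NCAM2 (7661 to 2355). WDR45B thus held a pair of each kind.

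Coverage per gene was measured as the bases covered by domains from 1 kb before to 1 kb after each of 19817 RefSeq protein-coding genes. A gene was called higher or lower in hypoxia when the larger value was at least 2 times the smaller and the difference was at least 1000 bases. This rule called 281 genes higher (1.42%) and 61 lower (0.308%), and these shares are the background for every list below. Among the 14649 genes with a domain in either list, 9568 had more covered bases in hypoxia, 4754 fewer and 327 the same number. Their median difference was 164 bases, and for genes with a domain in both lists the median ratio was 1.06. Of the genes called higher, 223 (79.4%) held at least 1 hypoxia-only domain, and 49 had no covered base in normoxia. Of the genes called lower, 43 (70.5%) held a normoxia-only domain, and 11 had no covered base in hypoxia. Covered bases grow with gene length, so the values compare the conditions within a gene and not one gene with another. A gene covered along more than 50% of its span in normoxia cannot be called higher, which held for 1479 of all genes, 9 of the 40 hypoxia-induced genes and 14 of the 20 luminal genes described next.

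**Figure D3:**
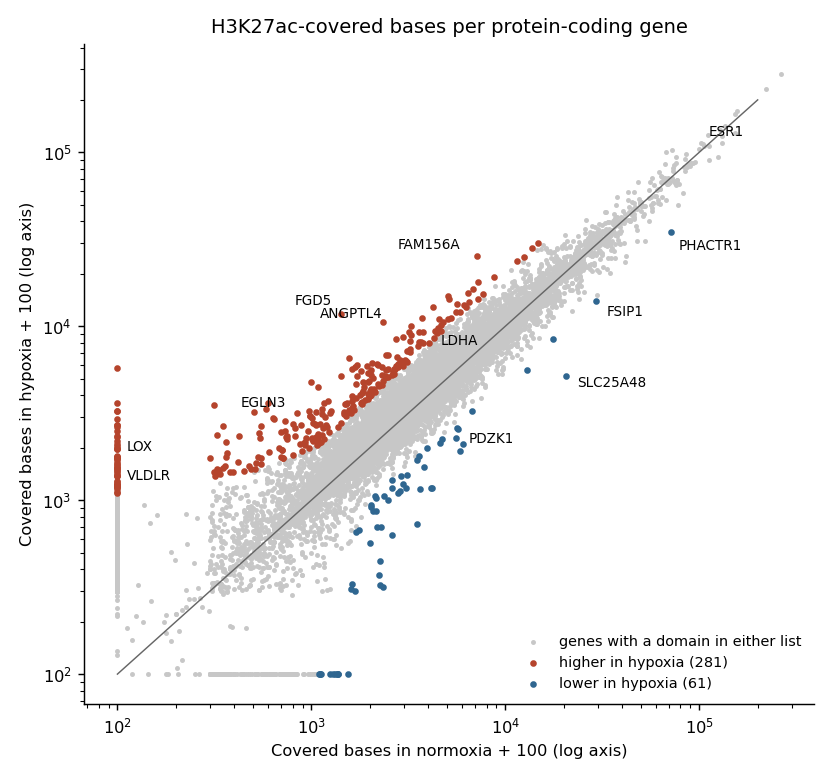
Bases covered by H3K27ac domains per protein-coding gene in normoxia (x axis) and hypoxia (y axis), both plus 100 and on log axes, for genes with a domain in either list. The 281 genes called higher in hypoxia are red and the 61 called lower are blue, and the line marks equal values.

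Genes known to be induced through HIF had the largest number of calls among the 26 lists described here, and the glycolysis list had the largest share. The lists and their members were chosen with earlier results of these data known, so this order is a description only. Of 40 hypoxia-induced genes, 8 were called higher (20.0%, against 1.42% of all genes) and 0 lower (against 0.308%). The 40 genes had a median difference of 1048.5 bases, and 32 of them had more covered bases in hypoxia, 3 fewer and 5 the same number. ANGPTL4, a secreted inhibitor of lipoprotein lipase, rose from 3145 to 9984 covered bases. A pair of normoxia domains, 3826 and 1150 bases wide, corresponded to a single hypoxia domain of 11861 bases there, and a hypoxia-only domain of 1764 bases lay at the gene's other end. PGK1, the glycolytic phosphoglycerate kinase, rose from 3073 to 9126 bases. The domain at its start was 3105 bases wide in normoxia and 8882 in hypoxia, and 3 hypoxia-only domains of 305 to 1101 bases followed within the gene.

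LDHA, which converts pyruvate to lactate, rose from 3496 to 8062 bases, and the domain at its start was 4436 bases wide in normoxia and 7528 in hypoxia. NDRG1, a stress-response gene long used as a hypoxia marker, rose from 2875 to 8552 bases, with each of its 3 normoxia domains wider in the hypoxia list and 2 hypoxia-only domains beside them. EGLN3, the HIF prolyl hydroxylase that is itself a HIF target, rose from 870 to 3157 bases. The gene start held a domain in both lists (870 and 1026 bases), and most of the gain lay in hypoxia-only domains of 1828 and 303 bases inside the gene. BNIP3, a mitophagy receptor, rose from 1386 to 3075 bases through 1 domain at the gene start.

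At LOX, the collagen cross-linking lysyl oxidase, and VLDLR, a lipoprotein receptor, the gene start had no normoxia domain. LOX had a single hypoxia domain of 1675 bases with a fold of 4.42 and VLDLR one of 1363 bases with a fold of 6.77, and both spanned the upstream sequences printed above. CA9, the carbonic anhydrase widely used as a hypoxia marker, had a hypoxia-only domain of 874 bases at its start and no normoxia domain, which fell short of the 1000 bases that the rule requires. VEGFA, the main angiogenic factor, had 13683 covered bases in hypoxia and 8523 in normoxia, and was not called. The 5 members with equal values (ADM, BHLHE40, DDIT4, HILPDA and STC2) were covered along the whole of their measured span in both lists, where covered bases cannot show a rise.

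**Figure D4:**
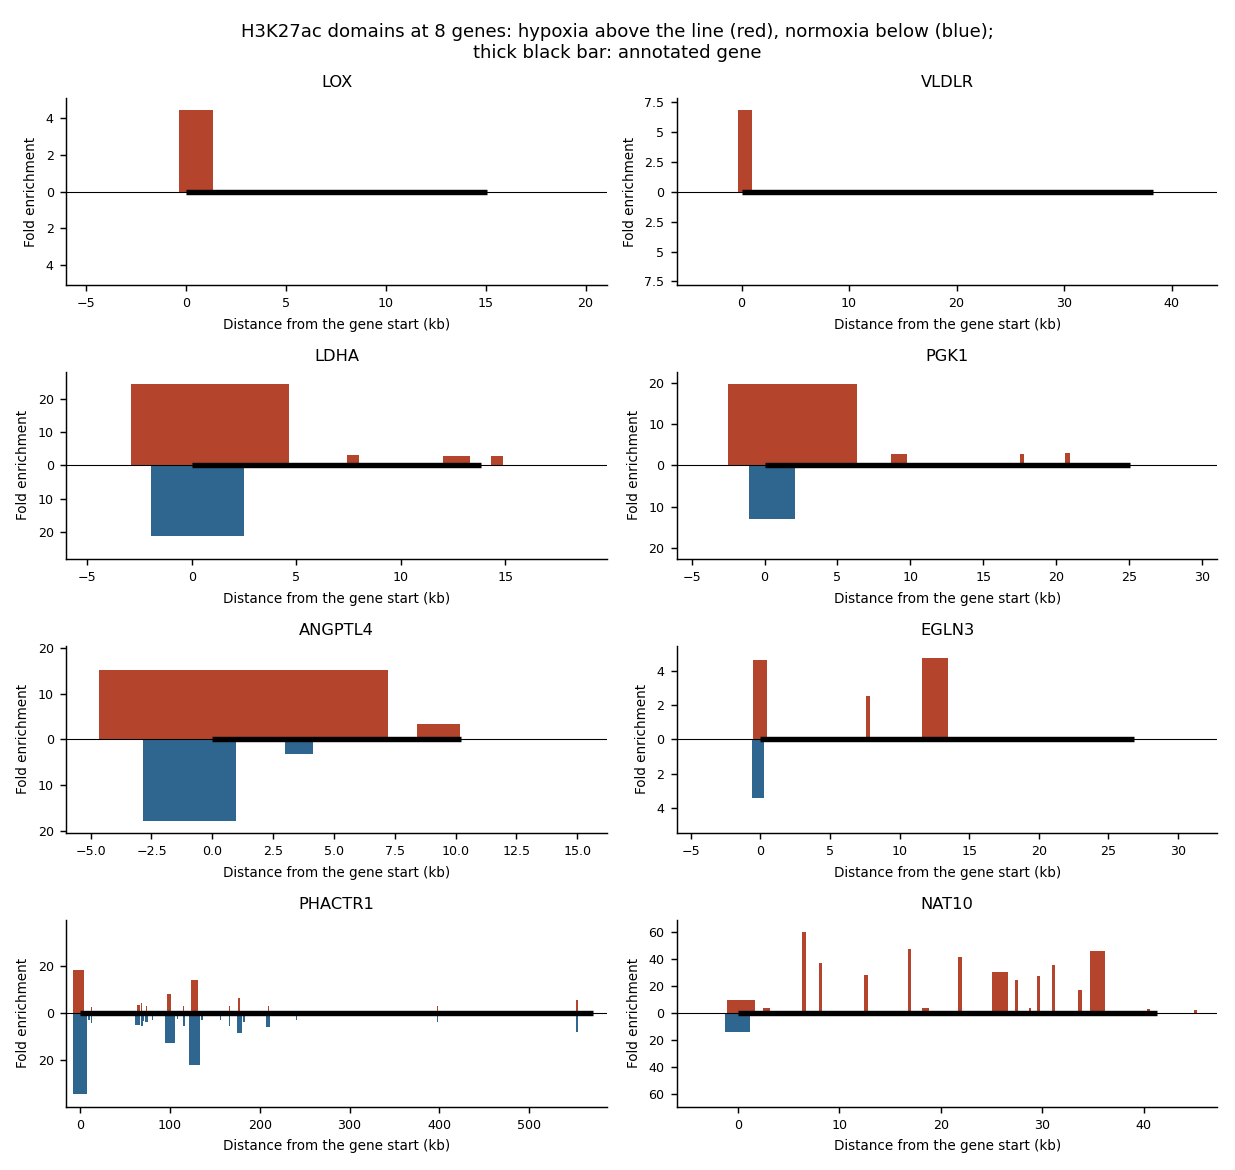
H3K27ac domains at 8 genes in hypoxia (red, above the line) and normoxia (blue, below the line), by distance from the gene start in kb (x axis) and the authors' fold enrichment within each list (y axis). LOX and VLDLR have a domain in hypoxia only, the start domains of LDHA, PGK1 and ANGPTL4 are wider in hypoxia, PHACTR1 has narrower domains in hypoxia, and NAT10 has 15 hypoxia-only domains.

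Glycolytic enzymes had more coverage in hypoxia throughout the pathway. Of 17 genes, 16 had more covered bases in hypoxia and 0 fewer, and LDHB had no domain in either list. The median difference was 1972 bases. By the call rule 4 rose (23.5%): PGK1, LDHA, the platelet-type phosphofructokinase PFKP (7585 to 15290 bases) and the enolase ENO2 (578 to 1903). Most of the gain of 1325 bases at ENO2 was its hypoxia-only start domain of 1095 bases. The call of ENO2 was lost when 3 or 10 kb on each side were counted, since a wide domain of both lists lies beyond its 3′ end. At PFKP the domain at the gene start was 2094 bases wide in normoxia and 2807 in hypoxia, and 6 hypoxia-only domains lay inside the gene. PFKP stood close to the threshold, and its call was lost when the coverage of both lists was scaled to the same total, with lists of equal length, or at a −log10 q of at least 5. PKM, the pyruvate kinase, had 27272 covered bases in hypoxia and 14452 in normoxia, and GPI had 5917 and 3164; neither reached 2-fold. When only 2 kb around each annotated end were counted, 0 of the 17 glycolysis genes were called. The hypoxia-induced and glycolysis lists share members, PGK1 and LDHA among them, so their counts are not separate observations.

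Among 16 genes of oxygen sensing and HIF signalling, HIF1A and EGLN3 rose (12.5%) and 0 fell. HIF1A, the oxygen-regulated HIF subunit, rose from 4396 to 9678 bases. Its start domain was 2974 bases wide in hypoxia and 2673 in normoxia. Most of the gain lay at the 3′ end and in 4 hypoxia-only domains of low fold (2.36 to 2.67) inside the gene. At the 3′ end a hypoxia domain of 10713 bases began inside the gene and reached beyond it. It joined normoxia domains of 3220 and 2596 bases that both lay beyond the annotated gene end. The second of these normoxia domains lay outside the 1 kb that was counted. The call of HIF1A was lost at a −log10 q of at least 5, with lists of equal length, and with wider gene windows. EPAS1, which encodes HIF-2α, had 8354 bases in hypoxia and 8036 in normoxia, VHL had 3711 and 2351, and ZHX2 had 14841 and 15950; none of them was called.

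Luminal identity genes were nearly the same in both conditions. The median difference over 20 genes was 0 bases, with 9 genes having more, 6 fewer and 5 the same number in hypoxia. FOXA1, KRT18, KRT19, ELF3 and XBP1 were the 5 equal ones, again covered along their whole span in both lists. GATA3 lay in 1 broad domain of 35540 bases in hypoxia and 35529 in normoxia. ESR1, the oestrogen receptor, had 112595 covered bases in hypoxia and 102309 in normoxia, and PGR, the progesterone receptor, 86832 and 92259. When the coverage of each list was scaled to the same total, 5 luminal genes had more and 15 fewer bases in hypoxia, with a median difference of −362 bases. This scaling divides every hypoxia value by 1.05, so the 5 equal genes count as fewer by construction. The equal genes do not account for the change from 9 to 5 genes with more bases. Whether luminal genes lost coverage relative to the whole list was not tested. TFF1, a secreted trefoil peptide and classical oestrogen target, was the only luminal gene called (5.00%), with 1458 covered bases in hypoxia and 0 in normoxia.

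Few oestrogen target genes were called, and these went in both directions. Of 20 genes, TFF1 and KCNK15 (1454 to 3121 bases) rose (10.0%, against 1.42% of all genes). PDZK1, a scaffold protein of membrane transporters, fell from 5588 to 2475 bases (5.00%, against 0.308%). The TFF1 call rested on 1 hypoxia-only domain with a low fold of 3.22. At PDZK1 a normoxia domain of 11419 bases at a gene end was split in hypoxia. The other 17 genes were not called, among them GREB1 (104300 bases in hypoxia and 99605 in normoxia), CCND1 (15319 and 13096) and MYC (6459 and 5851). At CCND1, the gene of cyclin D1, 4 normoxia domains were joined into 1 hypoxia domain of 21947 bases.

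In several chromatin and metabolic lists most members had more covered bases in hypoxia, without any call. For 27 genes of acetylation enzymes and their readers, including EP300 (5529 bases in hypoxia and 4355 in normoxia) and CREBBP (6487 and 4149), 22 had more and 5 fewer covered bases, with a median difference of 871 bases. Of 18 JmjC demethylase genes 14 had more and 4 fewer, with a median of 754 bases, and KDM4B, a known HIF target, had 85585 bases in hypoxia and 66595 in normoxia. Of 20 cholesterol and lipid genes 18 had more and 1 fewer, with a median of 971.5 bases. FDPS, which makes farnesyl pyrophosphate, had 8168 bases in hypoxia and 4214 in normoxia, and FASN, the fatty acid synthase, 14248 and 9225. Every member of these 3 lists had a domain. For comparison, 65.3% of the 14649 genes with a domain in either list had more and 32.5% fewer. The median covered bases of the JmjC list were 6220.5 in hypoxia and 6288 in normoxia. Other lists leaned the same way in their counts. Of 19 interferon-response genes 15 had more and 1 fewer, and of 20 immediate early genes 14 and 1.

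Clustered protocadherins, cell-surface adhesion genes in tandem arrays, went the other way: of 53 genes, 8 had more and 37 fewer covered bases in hypoxia, with a median difference of −394 bases and 0 calls. Their spans overlap in the arrays, so the members share domains and are not separate measurements. Of 73 histone genes 54 had equal values, and 43 were covered along their whole span in both lists. Single calls occurred among 19 interferon-response genes (IRF9, 825 to 2071 bases, where a pair of normoxia domains met 1 hypoxia domain, a call lost when neighbouring domains within 1000 bases were joined) and 26 oxidative phosphorylation genes (SDHA, 3171 to 8758 bases, a gene with pseudogene copies in the genome). These single calls made up 5.26% and 3.85% of their lists. Of 477 zinc finger genes ZNF395 and ZNF611 (2314 to 5025 bases) rose (0.419%) and ZNF431 fell (0.210%). Of 387 olfactory receptor genes OR1I1 and OR14A16 rose (0.517%). The zinc finger and olfactory shares lay below the 1.42% higher and 0.308% lower over all genes. ZNF611 lost its call with joining, lists of equal length, a −log10 q of at least 5 or any other gene window. No gene was called in the lists of cell cycle, MYC network, NF-kappaB, unfolded protein response, immediate early, heat shock, ribosomal protein, chromatin looping, HOX, invasion, basal or immune genes.

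**Figure D5:**
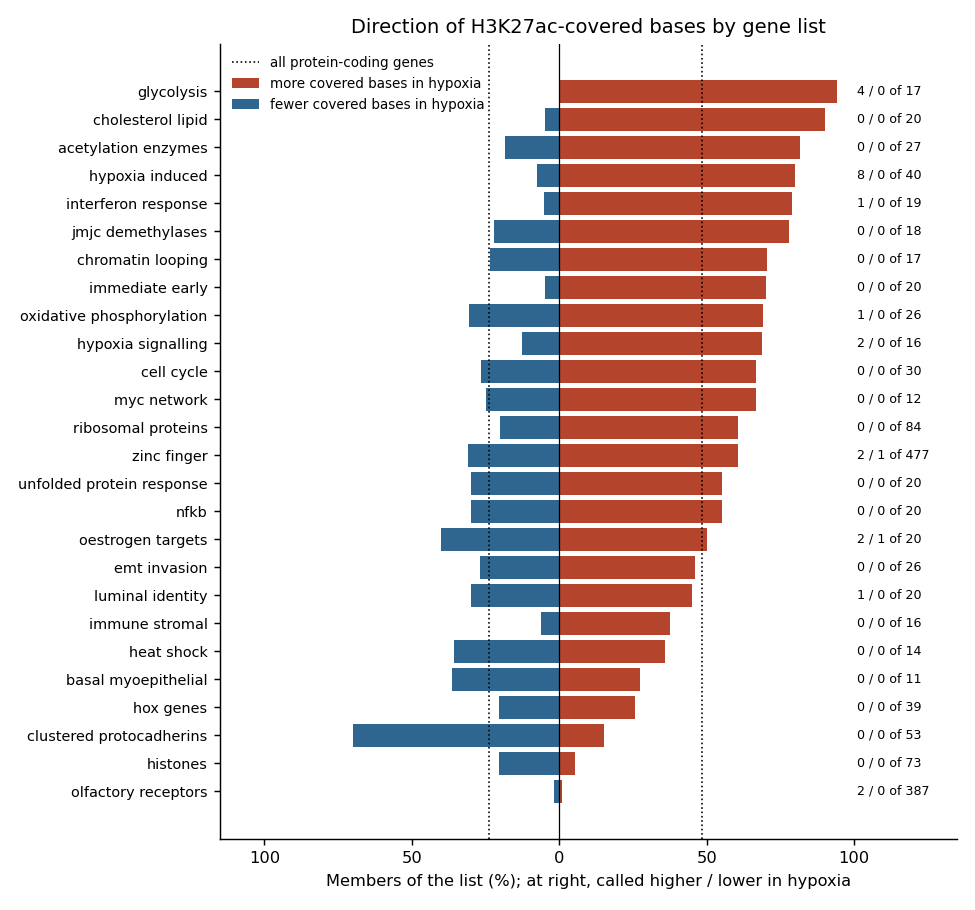
Share of the members of 26 gene lists with more (red, to the right) or fewer (blue, to the left) covered bases in hypoxia, in percent of all members, with the numbers called higher and lower at the right. Dotted lines mark the shares over all protein-coding genes, 48.3% with more and 24.0% with fewer, and the glycolysis list has no member with fewer bases.

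Over all genes, the largest rises by bases were at FAM156A (7050 to 25132), ZNF395 (14695 to 29826), TOM1L2 (13691 to 27998), AMZ1, PCBP2, SMTN (7162 to 17744), WAC, FGD5, CACNA2D3, SH3RF3, SLC28A1 and CSNK1E. FAM156A has a near-identical neighbour, FAM156B, and reads of the pair may not be told apart. FGD5, an exchange factor for CDC42 known from endothelial cells, had a ratio of 8.81, from 1327 to 11687 bases. Its domain of 436 bases in normoxia was 4395 bases wide in hypoxia, with 5 hypoxia-only domains in the same gene. ZNF395, TOM1L2, AMZ1 and PCBP2 stood just past 2-fold and lost their call when coverage was scaled to the same total, and WAC lost it with lists of equal length. SMTN and CSNK1E were no longer called when 10 kb on each side were counted. Of the 232 genes called higher that had a domain in both lists, 70 had a ratio under 2.2.

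The largest fall was at PHACTR1, a regulator of actin and protein phosphatase 1, from 71373 to 34770 covered bases, with 27 domains in normoxia and 16 in hypoxia. It was close to the threshold and lost its call at a −log10 q of at least 5 and with wider gene windows. SLC25A48, a mitochondrial carrier, fell from 20441 to 5053 bases, and FSIP1, next to the thrombospondin gene THBS1, fell from 29118 to 13830. FYB2, KCNE2 (5919 to 2002), KRT13 (6632 to 3148), NOC3L, PDZK1, ITGA9 and ATRNL1 also fell. None of these genes held a hypoxia-only domain. With 3 kb on each side FSIP1, KCNE2 and KRT13 were no longer called.

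Promoters of the genes called higher and lower differed in composition. Of the genes with a promoter in the reference table, those called higher had a median GC content of 64.7% over 300 bases, those called lower 55.8% and all genes with a domain 64.7%. ACGTG or CACGT was present in 78 of 223 promoters (35.0%) of genes called higher. These letters were present in 10 of 48 (20.8%) of genes called lower and in 25.8% of genes with a domain. With GCGTG and CACGC also counted, the shares were 63.2%, 43.75% and 61.4% in the same order. Genes called higher were then close to all genes with a domain. Genes with a domain were ranked by promoter GC into 5 groups of equal size. The median difference in covered bases was 111 in the group of lowest GC and 230 in that of highest GC, and the share called lower was 1.01% and 0.252%. The share called higher did not follow this order, at 2.10% in the group of lowest GC and 1.76% in that of highest GC. GC content also affects recovery in sequencing libraries, and its part in these differences was not tested. Few promoters changed state. Of 15811, 9732 (61.6%) were touched by both lists, 191 (1.21%) by the hypoxia list only and 72 (0.455%) by the normoxia list only. ACGTG or CACGT was present in 27.2%, 21.5% and 23.6% of these promoters in the same order. With GCGTG and CACGC also counted, the shares were 65.0%, 53.4% and 56.9%. Promoters touched by the hypoxia list only thus held these letters less often than those touched by both lists.

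The coverage ratio also differed between chromosomes. The ratio of hypoxia to normoxia coverage was highest on chromosomes 22 and 19 (1.14 each), X (1.10) and 16 (1.09), and lowest on chromosomes 21 (0.989) and 4 (1.01). Chromosome 19 held 531 hypoxia-only and 117 normoxia-only domains, and chromosome 21 held 131 and 102. Across the 22 chromosomes with at least 50 promoters in the table, Spearman's rank correlation between the coverage ratio and the median promoter GC was 0.48, given as a description of points that share the same libraries.

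Domains with a partner in the other list held a ZHX2 peak more often than list-only domains. A hypoxia ZHX2 peak was found in 42.6% of one-to-one hypoxia domains, 64.3% of merged ones and 5.66% (5.21 to 6.16) of hypoxia-only ones. CTCF showed the same order for the share of domains with a peak but not per length: a hypoxia CTCF peak lay in 44.7% of one-to-one and 18.5% of hypoxia-only hypoxia domains, while hypoxia CTCF peaks numbered 24.6 and 33.1 per 100 kb of them, and hypoxia ZHX2 peaks 25.5 and 10.4. Width accounts for part of such shares, since wider domains can hold more peaks. Among domains of 500 to 1000 bases, 5.65% of 3007 hypoxia-only and 17.2% of 6894 shared hypoxia domains held a hypoxia ZHX2 peak. In one-to-one pairs of 2 to 5 kb mean width, a hypoxia ZHX2 peak lay in 53.4% of the 481 pairs that were at least 1.5 times wider in hypoxia, in 19.7% of the 412 that were at least 1.5 times narrower and in 66.1% of the 9697 between these limits. Under 1 kb mean width, with 2532, 1781 and 5863 pairs in the same order, the shares were closer, at 13.4%, 10.5% and 21.3%. They were 21.8%, 9.99% and 41.3% at 1 to 2 kb. Over 5 kb, where 34 pairs were wider and 31 narrower, they were 79.4%, 19.4% and 82.8%. The 2 to 5 kb classes also differed in place, since 33.7%, 6.55% and 52.6% of them touched a gene end. The part of place in the ZHX2 shares was not tested.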

How the data were processed

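ChIP-seq of T47D cells was analysed from the deposited peak lists, 1 for each condition and target. The tools named, per the submitters' processing notes, are MACS2, Bowtie2 and cutadapt, and the builds are GRCh38 and hg38. Versions, read depth and whether the 2 replicates of a condition were pooled are not given in the sources used here. Each deposited domain carries the authors' score, fold enrichment and −log10 q value. The deposited score was 10 times the −log10 q value, rounded down, for 46713 of 46713 hypoxia and 42584 of 42586 normoxia domains, and the lowest −log10 q was 3.47 in hypoxia and 3.49 in normoxia. Fold enrichment depends on depth and was used within a list only.

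Overlap, widths, groups and covered bases were computed in Python 3.11.15 with numpy 2.4.6, pandas 2.3.3 and scipy 1.17.1, and tested on simulated data. Samples were grouped by their titles. Spans of 19817 protein-coding genes and the sequences of 15811 promoters came from RefSeq GRCh38.p14; no genome sequence was used. Older gene symbols were matched, and PVT1 is not protein-coding. The members and the 26 gene lists were chosen with earlier results of these data known. Named were the 12 largest rises and 12 largest falls among called genes, up to 4 called members of each list, 15 fixed genes, and the 5 most extreme domains of each kind by width, fold, joining, splitting or change in width. BNIP3, LOX, VLDLR, NAT10, the array on the X chromosome and uncalled list members other than the fixed genes were singled out after their values were seen. Alternatives changed the overlap, score and width limits, list length, joining, contigs, gene window, scaling, fold and gene set. The Flag lists were not used, and some results that the naming rule covers are not reported here.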

Additional observations from a re-analysis of the deposited data

How the results depend on the processing

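The share of hypoxia-only domains was 19.4% and became 12.4% in the upper 50% of each list by score, 14.9% with lists of equal length, 17.8% at a −log10 q of at least 5, 17.9% with domains within 1000 bases joined, 16.4% for domains of at least 500 bases and 20.6% when sharing required 50% of the shorter domain. The share of normoxia-only domains was 10.9% and became 3.99%, 13.8%, 10.5%, 9.65%, 9.61% and 12.3% in the same order. The ratio of covered bases, 1.05, became 1.06, 1.03 and 1.04 under the first 3 of these. The ratio of median widths, 0.920, became 0.966, 1.03 (turned), 0.934, 0.923 and 0.950 under the first 5, and 0.921 with all contigs. The ratio of merged to split groups, 1.18, became 0.910 (turned) in the upper 50% by score, 1.40 with lists of equal length, 1.05 with joining and 1.06 for domains of at least 500 bases. The causes of these 2 turns were not tested. Genes called higher numbered 281 and became 115 when only 2 kb around each annotated end were counted, 835 at 1.5 times and 529 over all annotated genes, and genes called lower numbered 61 and became 24, 173 and 186. Of 42 called genes, 38 given by the naming rule and reported here plus BNIP3, LOX, VLDLR and NAT10, 10 stayed called around the ends only, 27 with 10 kb on each side, 31 with 3 kb, 34 with lists of equal length or the stricter q value, 37 after scaling, 40 with joining and all 42 at 1.5 times. The hypoxia-induced list had 8 of 40 genes called higher under every setting except the ends only (4) and 1.5 times (12), where 0.580% and 4.21% of all genes were called. The 8 were not always the same genes, since BNIP3 lost its call with 10 kb on each side. The glycolysis list, with 4 of 17 called, had 0 around the ends only, 5 with joining and 7 at 1.5 times. Under wider gene windows, scaling, equal length or the stricter q value it had 3. No paired analysis was possible because each condition has 1 list, so the replicate numbers carry no values and no replicate could be left out. Read depth is unknown, and the list-only domains lay close to each list's lowest score, with a median −log10 q of 6.14 in hypoxia and 6.03 in normoxia.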

Other observations

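NAT10, an RNA cytidine acetyltransferase gene on chromosome 11, held 15 hypoxia-only domains and 0 normoxia-only ones. They were 203 to 1574 bases wide with a median of 312, and their folds ran from 2.94 to 60.2, the highest fold of the hypoxia list; 11 of them had a fold of at least 15. Outside NAT10 only 1 of 9026 hypoxia-only domains reached a fold of 15, a domain of 4646 bases, 84459 bases from C1D, with 15.2. The next highest lay 21771 bases from EDNRA (10.1), 75366 from CUL2 (10.0), 97962 from IFNE (9.89) and in CCNY (9.22). None of the NAT10 domains held a ZHX2 peak of either list. The gene start itself had a domain in both lists, and the locus map of NAT10 shows the others spread along the gene. Without reads or exon positions, what these narrow domains of high fold reflect could not be examined.

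On the X chromosome, where PLS3 was the nearest protein-coding gene at 206715 bases from the widest hypoxia domain, a region of 45.7 kb at chrX:115843376-115889121 (GRCh38) held 16 normoxia domains with a median width of 746.5 bases at a median spacing of 2964.5 bases. The hypoxia list had 3 domains there, covering 44267 bases against 12596 in normoxia. CTCF peaks lay at a like spacing in both conditions, 18 in normoxia (2965.5 bases) and 16 in hypoxia (2952.5 bases). ZHX2 peaks numbered 20 in normoxia and 44 in hypoxia. How uniquely reads map in this region was not examined.

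Over windows of 200 kb, large increases lay at ZNF532 on chromosome 18 (74502 bases in normoxia and 112035 in hypoxia), and at DSP, the gene of desmoplakin, on chromosome 6 (28505 and 54524), besides the PLS3 and FAM156A windows on the X chromosome and the NOTCH3 window on chromosome 19. It decreased most at VAV3 on chromosome 1 (106229 and 78319), PHACTR1 on chromosome 6 (45817 and 19703), PLCE1 on chromosome 10 (65443 and 41176), TRPC6 on chromosome 11 (81352 and 57311) and BMPER on chromosome 7 (53703 and 32681).

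For domains between genes, the nearest gene is named with its distance. The widest hypoxia-only domains lay 142312 bases from TNS1 (5513 bases wide), 38160 from BACH1 (5273), in ELL (5267), 15757 from TM2D3 (5244) and at KLHL9 (5243). The widest normoxia-only domains lay 639818 bases from ANXA1 (6572 bases wide), 155964 from KCTD3 (4114), in KCNMA1 (3984), in MORC3 (3613) and 666314 from ARRDC3 (3571). The normoxia-only domains of highest fold lay 27130 and 30092 bases from NPIPB15, a member of a multicopy family (7.79 and 6.61), in SLC25A48 (6.46), in PKN2 (6.28) and 459928 bases from DIRAS2 (6.22).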
